A study of Mus musculus with 9 samples.

Results

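Antiviral interferon-stimulated genes were followed across untreated, IL-4-treated and IL-27-treated mouse macrophages. The set holds 42 genes chosen by name as antiviral interferon-stimulated genes, with earlier results of these data known. Of these, 40 were among the 16200 genes of the deposited tables. Mx1 and Mx2 were not analysed here. The expression filter kept 39 of the 40, all except Oasl1, and 12587 genes in all. The cells were wild-type (WT) bone marrow-derived macrophages grown for 6 days in medium with 10% L929 supernatant, a fibroblast-conditioned medium that supplies macrophage growth factor. One group of 3 libraries was left untreated, one was treated for 12 h with interleukin-4 (IL-4) at 20 ng/ml, and one for 6 h with interleukin-27 (IL-27) at 100 ng/ml. Dose and time therefore differ between the cytokines, and the treatment text is shared by all samples, so the labels do not say whether IL-27 cells also received IL-4. PolyA RNA was sequenced. The 3 libraries of a group are replicate experiments, but nothing in the labels ties them to separate animals or cultures. The p-values therefore reflect spread among these libraries alone, and that spread may be technical.

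Interferon-stimulated genes are switched on when type I or type II interferon binds its receptor and activates JAK kinases and STAT transcription factors. A complex that contains IRF9 binds the interferon-stimulated response element (ISRE), and STAT dimers bind the gamma-activated site (GAS). Their products sense viral nucleic acid, block translation of viral RNA, degrade RNA or hold virions at membranes, and macrophages express many of them at a low level without infection. IL-27 and IL-4 also signal through JAK kinases and STAT factors, with STAT6 the main one for IL-4.

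Promoter sequence was examined first. The members were not picked by sequence, but they were picked as interferon-stimulated genes. Their share of ISRE and GAS motifs is therefore not independent of that choice. RefSeq windows from 250 bases before to 50 bases after the start site (build GRCm38.p6) matched 30 of the 40 members, and 6 of these had more than 1 window, counted once where any held a motif. The core of the ISRE was searched as GAAA, any 2 bases (NN) and GAAA again, and that of the GAS as TTCNNNGAA, each on both strands. The ISRE core was present in 15 of 30 member promoters (50%), against 3.99% of 27025 genes with a window and 3.85% of the 12688 that were also in the counts table. The GAS core was present in 8 of 30 (26.7%), against 9.55% and 8.38% of the same genes. Among members with a window, 2 of 4 that IL-27 raised and 4 of 6 that it lowered held the ISRE core, as did 9 of the 19 that did not pass. Letters of this motif were thus found in members of both directions. For the GAS core the counts were 1 of 4 raised members (Ifit2, 241 bases before the start), 0 of 6 lowered members and 7 of 19 that did not pass. The 2 cores can share bases, as they did in the windows of Bst2 and Ifitm3. The Ifit1 window held ISRE cores starting 104 and 85 bases before the start site, and that of Isg15 held 3 overlapping ones starting 78, 72 and 66 bases before it. Shown here are the 250 bases before the start of a pair of members that IL-27 raised (Rsad2 and Slfn5) and a pair that it lowered (Oas3 and Ifit3), all with the ISRE core, on the gene's strand with the core in capitals on whichever strand it lies. The regions are chr12:26456453-26456702 (minus strand) for Rsad2, chr11:82951852-82952101 (plus) for Slfn5, chr5:120777660-120777909 (minus) for Oas3 and chr19:34583279-34583528 (plus) for Ifit3.
Rsad2: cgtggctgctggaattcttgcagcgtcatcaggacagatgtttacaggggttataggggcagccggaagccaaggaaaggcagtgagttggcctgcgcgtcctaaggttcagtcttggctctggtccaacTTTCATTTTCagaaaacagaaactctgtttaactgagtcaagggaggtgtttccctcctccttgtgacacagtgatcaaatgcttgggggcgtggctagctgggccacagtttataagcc
Slfn5: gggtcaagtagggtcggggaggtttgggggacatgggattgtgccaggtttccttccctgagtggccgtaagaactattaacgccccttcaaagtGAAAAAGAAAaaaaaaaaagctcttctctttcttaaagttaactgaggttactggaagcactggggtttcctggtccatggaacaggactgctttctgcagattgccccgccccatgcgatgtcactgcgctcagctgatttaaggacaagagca
Oas3: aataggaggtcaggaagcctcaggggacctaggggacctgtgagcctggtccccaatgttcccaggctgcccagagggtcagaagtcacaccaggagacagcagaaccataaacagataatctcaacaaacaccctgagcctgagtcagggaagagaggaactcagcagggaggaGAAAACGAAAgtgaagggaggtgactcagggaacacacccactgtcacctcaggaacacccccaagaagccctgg
Ifit3: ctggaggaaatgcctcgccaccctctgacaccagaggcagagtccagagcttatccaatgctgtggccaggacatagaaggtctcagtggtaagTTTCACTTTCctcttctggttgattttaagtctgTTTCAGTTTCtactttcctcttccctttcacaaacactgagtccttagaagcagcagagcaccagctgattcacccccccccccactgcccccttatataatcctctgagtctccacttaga
The core started 120 bases before the start site in Rsad2, 155 in Slfn5 and 75 in Oas3, and Ifit3 held it at 156 and at 122 bases. A match to these letters is a description of the sequence and not a measured binding site.

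**Figure D1:**
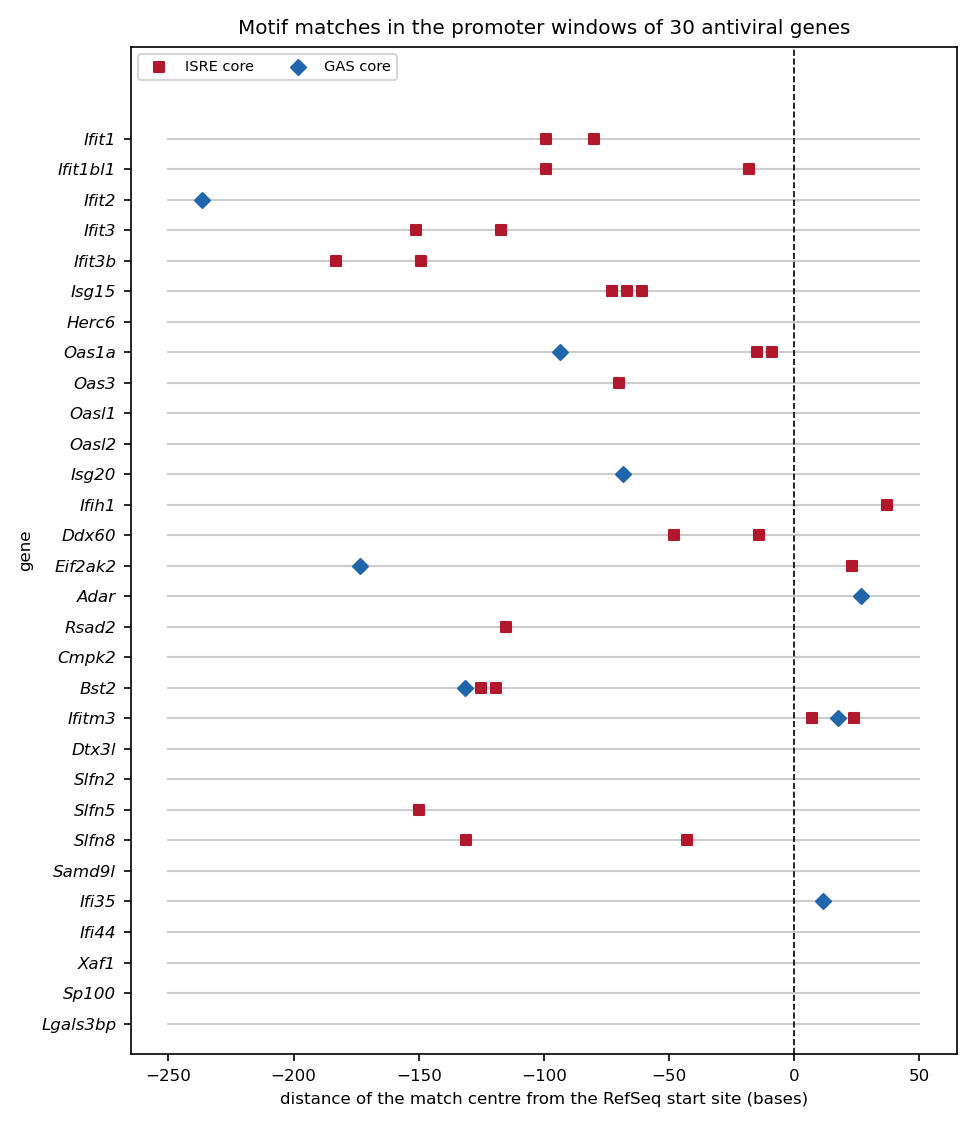
Positions of ISRE core (squares) and GAS core (diamonds) matches in the RefSeq promoter windows of 30 antiviral genes, as distance in bases from the start site. Of the 30 genes, 15 held the ISRE core and 8 the GAS core.

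Levels per length differed widely among the members. By deposited FPKM (counts per base of gene length and per library size), untreated cells were led by the secreted glycoprotein gene Lgals3bp (159 FPKM), the membrane fusion inhibitor Ifitm3 (147), the Schlafen gene Slfn2 (108) and tetherin, Bst2 (88.0). These 4 made up 67.6% of the summed FPKM of the 40 members. Of all 40, 9 were under 1 FPKM, 20 lay between 1 and 10, and 11 were at 10 or above. Under IL-4 the leading members were Lgals3bp (147 FPKM), Bst2 (104), Slfn2 (65.0) and the torsin ATPase gene Tor3a (48.0), so that Ifitm3 was no longer among the first 4. With IL-27 the order was again Lgals3bp (138 FPKM), Ifitm3 (104), Slfn2 (88.0) and Bst2 (76.4). Summed over the members, FPKM ranged from 703 to 813 in untreated, from 549 to 577 in IL-4 and from 668 to 672 in IL-27 libraries. The IL-4 libraries had the lowest sums and the untreated ones the highest, and no groups overlapped. Such sums are set by the most abundant members. With IL-4 the mean sum went from 744 to 562, Ifitm3 from 147 to 35.9 and Slfn2 from 108 to 65.0, whereas some members, such as Bst2 (88.0 to 104), were higher. In bulk RNA, fewer cells expressing a gene and less RNA per cell cannot be told apart.

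**Figure D2:**
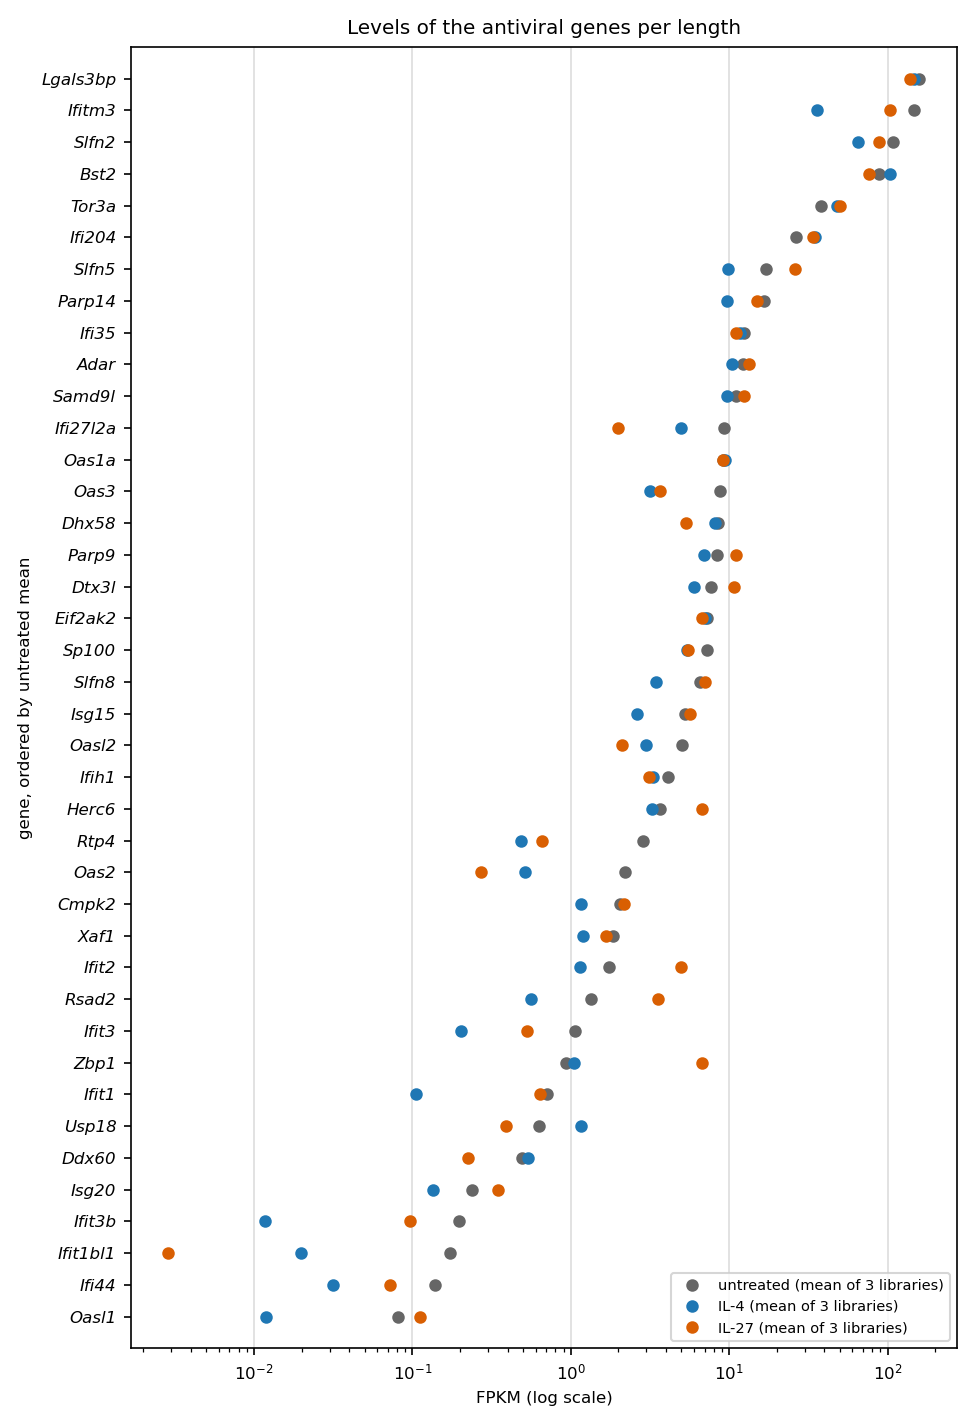
Mean FPKM over 3 libraries (log axis) of the 40 antiviral genes in untreated, IL-4 and IL-27 cells, ordered by the untreated level. Lgals3bp leads in all 3 groups, at 159, 147 and 138 FPKM.

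The libraries held 34577188 to 37951827 counts, with 14001 to 14326 genes detected. Libraries are named by group and replicate number. Untreated library 2 and IL-4 library 1 stood apart from the others of their group. Chi-square per gene was 80.0 to 101 in the within-group pairs that held either, and 4.99 to 7.97 in the other pairs. Of the 39 tested members, 32 deviated in the same direction in both libraries, and 15 did so by over 0.3 on the log2 scale. Of these, 8 were higher in both (Usp18, Isg20, Dhx58, Bst2, Ifitm3, Ifi35, Lgals3bp and Ifi27l2a) and 7 were lower in both (Ifit1, Ifit1bl1, Ddx60, Zbp1, Ifi204, Samd9l and Sp100). All 8 macrophage markers were above 1 CPM in each group, with sums of 23214 to 31910 CPM in untreated, 16117 to 19679 in IL-4 and 24669 to 26762 in IL-27 libraries, mostly from Lyz2. Against untreated, IL-27 lowered 3 of the 8, Csf1r (log2 -0.95, adjusted p = 0.00115), Adgre1 (-0.67, adjusted p = 0.0013) and Fcgr1 (-0.34, adjusted p = 0.0445), and 5 did not pass. IL-4 raised Mrc1 (log2 2.19) and lowered Lyz2 (-1.01) and Fcgr1 (-1.42). The 4 markers of plasmacytoid dendritic cells, a major source of type I interferon, that were in the tables averaged under 1 CPM each in every group and summed to at most 0.916 CPM in a library. Markers of T and NK cells also averaged under 1 CPM in every group, although the NK marker Klrb1c reached 1.05 CPM in IL-27 library 2 and was higher with IL-27 than with IL-4 (log2 2.63, adjusted p = 0.0132). Of 5 B cell markers, Cd79b was at 2.70, 3.37 and 2.37 CPM in the untreated libraries and 0.327 to 0.579 with IL-27 (log2 -2.61, adjusted p = 0.000886). Only 1 of the 5 neutrophil markers measured reached 1 CPM, and their sum was 3.52 to 4.72 CPM in untreated, 2.05 to 2.82 in IL-4 and 7.72 to 9.08 in IL-27 libraries. The 5 fibroblast markers were all detected and summed to 680 to 772 CPM in untreated, 508 to 713 in IL-4 and 1044 to 1306 in IL-27 libraries. IL-27 raised 4 of these 5 against untreated. The part of these marker changes in the results on IL-27 was not tested.

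Under IL-27 some antiviral genes rose and others fell, as was also the case over all genes. Against untreated cells, 7 of the 39 tested members rose (Zbp1, Ifit2, Rsad2, Herc6, Slfn5, Tor3a and Parp9) and 10 fell (Ifit1bl1, Oas2, Ifi27l2a, Rtp4, Oas3, Oasl2, Ddx60, Ifit3, Dhx58 and Slfn2), while 22 did not pass an adjusted p under 0.05. Over all 12587 genes, 14.0% rose and 15.1% fell, or 29.2% in either direction. The IL-27 and untreated libraries did not overlap in CPM for 23 of the 39 members, and for 52.2% of all genes. The members' median log2 fold change was -0.13, beside 0.00 over all genes. Rises ranged from a log2 fold change of 0.41 to 2.88 and falls from -0.28 to -5.44. Levels below are CPM, counts scaled to library size with TMM factors, and fold changes and p-values come from edgeR's quasi-likelihood test with Benjamini-Hochberg adjustment over all genes.

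**Figure D3:**
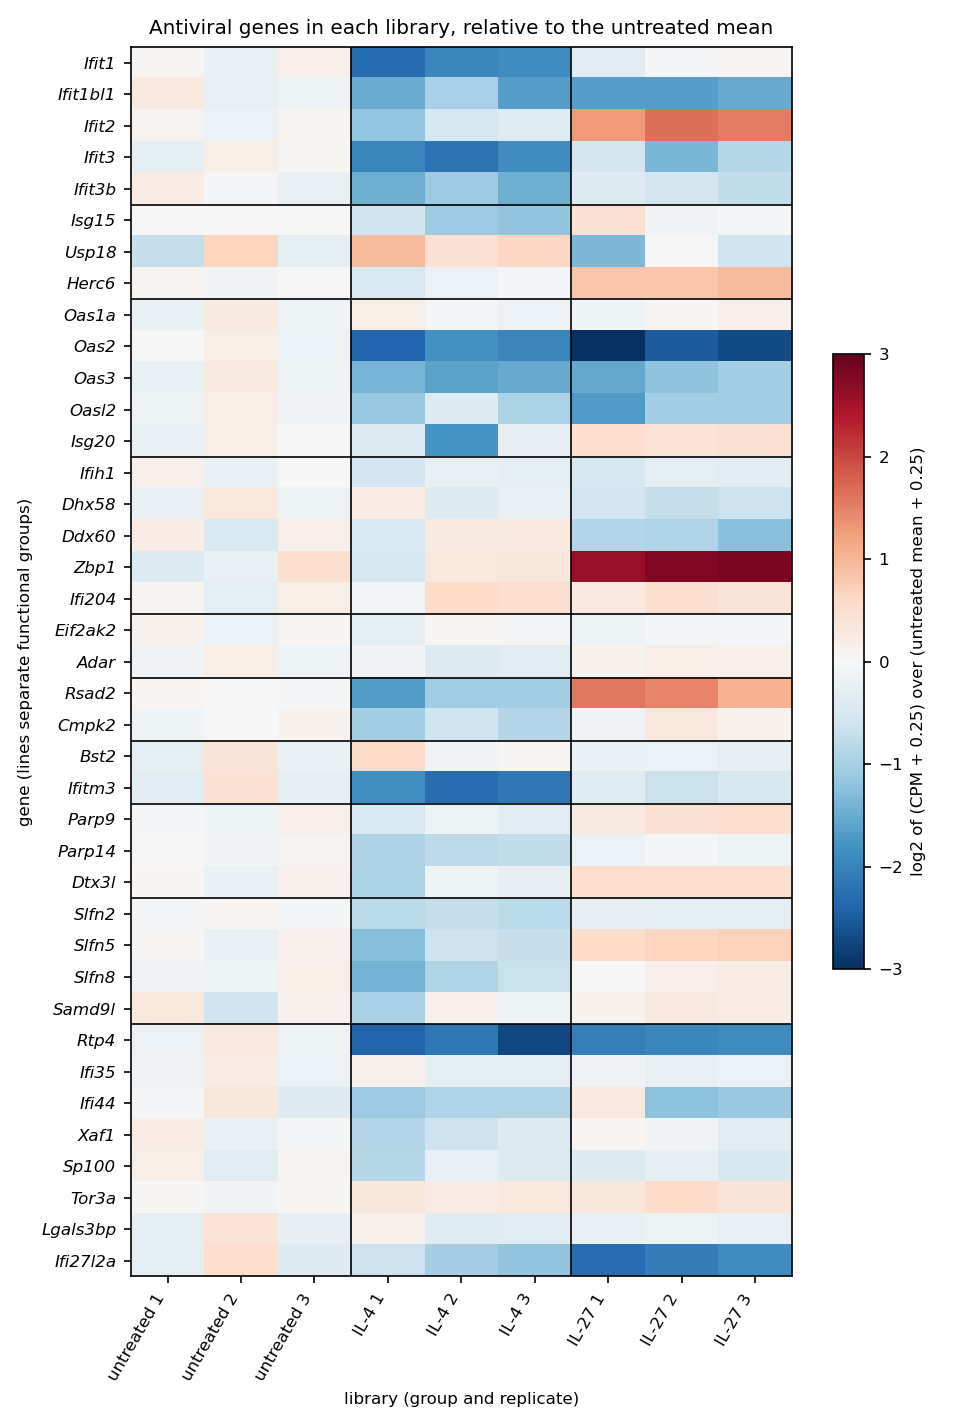
Level of each of the 39 tested antiviral genes in each library, as log2 of CPM (with 0.25 added) over the untreated mean, with colours limited at 3 in either direction. Under IL-27, Zbp1, Ifit2 and Rsad2 are red and Oas2, Rtp4 and Ifi27l2a are blue in all 3 libraries.

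The largest rise under IL-27 was that of Zbp1, a sensor of Z-form nucleic acid that can start necroptosis. Zbp1 stood at 1.45, 1.69 and 2.93 CPM in the untreated libraries, 1.35, 2.60 and 2.65 with IL-4, and 13.6, 15.4 and 15.8 with IL-27. Every IL-27 library lay above every other, a 7.38-fold rise over untreated (log2 fold change 2.88, SE 0.30, adjusted p = 8.78e-05), whereas the IL-4 and untreated libraries overlapped. Ifit2, whose product binds RNA and limits viral translation, measured 8.09, 6.78 and 8.09 CPM in untreated, 3.31, 5.24 and 5.88 in IL-4 and 18.9, 24.7 and 22.5 in IL-27 libraries. The groups did not overlap, and the rise with IL-27 was 2.88-fold (log2 1.53, SE 0.20, adjusted p = 0.000374). Rsad2 encodes viperin, which makes a chain-terminating nucleotide from CTP. Its levels were 5.31, 5.03 and 4.99 CPM without cytokine, 1.44, 2.37 and 2.34 with IL-4 and 15.7, 14.5 and 10.7 with IL-27. All IL-27 libraries were highest and all IL-4 libraries lowest, and IL-27 gave a 2.67-fold rise (log2 1.42, SE 0.21, adjusted p = 0.000651).

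Smaller rises under IL-27 were seen for Herc6, Slfn5, Tor3a and Parp9. Herc6, the mouse ligase that attaches ISG15 to proteins, was at 20.6, 18.4 and 19.4 CPM in untreated, 14.1, 17.2 and 19.1 in IL-4 and 35.02, 35.01 and 38.1 in IL-27 libraries. It was 1.85-fold higher with IL-27 (log2 0.89, SE 0.12, adjusted p = 0.00045), with no overlap. Slfn5, a nuclear Schlafen protein, was at 112, 94.9 and 119 CPM in untreated, 44.9, 69.0 and 67.1 in IL-4 and 159, 171 and 174 in IL-27 libraries. The 3 groups were ordered without overlap, and the rise with IL-27 was 1.55-fold (log2 0.63, SE 0.16, adjusted p = 0.013). That call was lost without IL-27 library 3 (adjusted p = 0.0504). Tor3a read 128, 118 and 127 CPM in untreated, 158, 148 and 154 in IL-4 and 158, 181 and 162 in IL-27 libraries. Both treated groups lay above the untreated one, by 1.34-fold for IL-27 (log2 0.43, SE 0.08, adjusted p = 0.0038). Parp9, which works with the ubiquitin ligase Dtx3l, gave 31.9, 30.2 and 36.5 CPM in untreated, 23.8, 29.4 and 26.4 in IL-4 and 39.7, 45.6 and 46.0 in IL-27 libraries. The IL-27 libraries were highest, a 1.33-fold rise (log2 0.41, SE 0.12, adjusted p = 0.0246). Parp9 no longer passed when any of untreated library 1, untreated library 2, IL-27 library 2 or IL-27 library 3 was left out (adjusted p = 0.0702 to 0.0968).

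Among the members that IL-27 lowered were 3 of the 2'-5' oligoadenylate synthetase (OAS) family, enzymes that make oligoadenylates on binding double-stranded RNA. Oas2 measured 8.98, 10.3 and 7.98 CPM in untreated, 1.55, 2.40 and 2.11 in IL-4 and 0.764, 1.41 and 1.20 in IL-27 libraries. Untreated libraries were highest by far, and IL-27 left an 8.05-fold lower level (log2 -3.01, SE 0.26, adjusted p = 2.23e-05). Oas3 was at 37.8, 52.4 and 39.9 CPM in untreated, 16.5, 14.2 and 15.1 in IL-4 and 14.9, 18.6 and 21.2 in IL-27 libraries. Both treated groups lay below the untreated one and overlapped each other, with a 2.38-fold fall under IL-27 (log2 -1.25, SE 0.16, adjusted p = 0.00033). For Oasl2 the levels were 14.5, 18.2 and 14.96 CPM in untreated, 7.16, 12.0 and 8.07 in IL-4 and 4.69, 7.72 and 7.60 in IL-27 libraries. It too was highest in untreated cells, and fell 2.38-fold with IL-27 (log2 -1.25, SE 0.24, adjusted p = 0.00341). Oas1a, in contrast, had means of 18.1 ± 3.34 CPM in untreated, 18.1 ± 2.36 in IL-4 and 18.3 ± 1.79 in IL-27 cells (SD, n = 3), and did not pass in any comparison. The OAS, IFIT, IFITM, Schlafen and Ifi200 families share sequence, and how shared reads were counted is not given. Levels of single members are therefore uncertain.

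Rtp4, an interferon-inducible inhibitor of flaviviruses, stood at 7.42, 10.5 and 7.56 CPM in untreated, 1.44, 1.70 and 1.07 in IL-4 and 1.85, 1.99 and 2.11 in IL-27 libraries. Every untreated library was above every treated one, and IL-27 lowered it 4.27-fold (log2 -2.09, SE 0.22, adjusted p = 8.39e-05). Ifi27l2a, a small interferon-inducible protein, gave 6.73, 12.0 and 6.33 CPM in untreated, 5.31, 4.04 and 3.51 in IL-4 and 1.5, 1.79 and 2.11 in IL-27 libraries. The groups were ordered untreated, IL-4, IL-27 without overlap, and the fall with IL-27 was 4.62-fold (log2 -2.21, SE 0.29, adjusted p = 0.000351). Ddx60, a helicase that promotes RNA sensing, was at 4.06, 2.44 and 3.85 CPM in untreated, 2.43, 4.22 and 4.27 in IL-4 and 1.77, 1.74 and 1.31 in IL-27 libraries. The IL-27 libraries were lowest (log2 -1.10, SE 0.29, adjusted p = 0.0177), whereas IL-4 and untreated overlapped. Its call was lost without untreated library 1, untreated library 3 or IL-27 library 3 (adjusted p = 0.0551 to 0.0696).

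Within the IFIT family, whose RNA-binding members lie side by side on chromosome 19, IL-27 gave both directions. Ifit3 measured 2.36, 3.34 and 2.99 CPM in untreated, 0.557, 0.424 and 0.611 in IL-4 and 1.91, 0.966 and 1.48 in IL-27 libraries. The 3 groups did not overlap, and the level with IL-27 was 1.99-fold lower than in untreated cells (log2 -0.995, SE 0.30, adjusted p = 0.0317), in contrast with the rise of Ifit2. Ifit3 no longer passed without untreated library 2, untreated library 3, IL-27 library 2 or IL-27 library 3 (adjusted p = 0.0787 to 0.103), nor without both libraries that stood apart (adjusted p = 0.0515). Ifit1, which binds RNA lacking cap methylation, gave 1.92, 1.60 and 2.09 CPM in untreated, 0.176, 0.2996 and 0.331 in IL-4 and 1.45, 1.79 and 1.91 in IL-27 libraries. IL-27 and untreated libraries overlapped (log2 -0.12, SE 0.28, adjusted p = 0.774), and the IL-4 libraries were far below both. Ifit1bl1 was near the detection limit, at 0.723, 0.422 and 0.474 CPM in untreated, 0.0293, 0.150 and 0 in IL-4 and 0, 0 and 0.0274 in IL-27 libraries. Its IL-27 libraries held 1 count in all against 57 in untreated, a ratio of 0.0168 with an exact 95% counting interval of 0.000419 to 0.0976 (adjusted p = 0.00462 in edgeR). Such intervals cover counting error only.

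The other 2 members that IL-27 lowered moved less. Dhx58, which encodes the RNA sensor LGP2, had means of 20.7 ± 4.42 CPM in untreated and 13.1 ± 0.692 in IL-27 cells (SD, n = 3; log2 -0.65, SE 0.19, adjusted p = 0.0248). That call was lost without untreated library 2 or any 1 IL-27 library (adjusted p = 0.0611 to 0.0883). Slfn2, a Schlafen protein needed for immune cell quiescence, stood at 177, 188 and 177 CPM in untreated, 104, 109.6 and 103 in IL-4 and 152, 146 and 149 in IL-27 libraries. Untreated was highest and IL-4 lowest, without overlap, the IL-27 fall being 1.21-fold (log2 -0.28, SE 0.07, adjusted p = 0.0174). It did not pass without any 1 of the IL-27 libraries (adjusted p = 0.0551 to 0.0757).

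**Figure D4:**
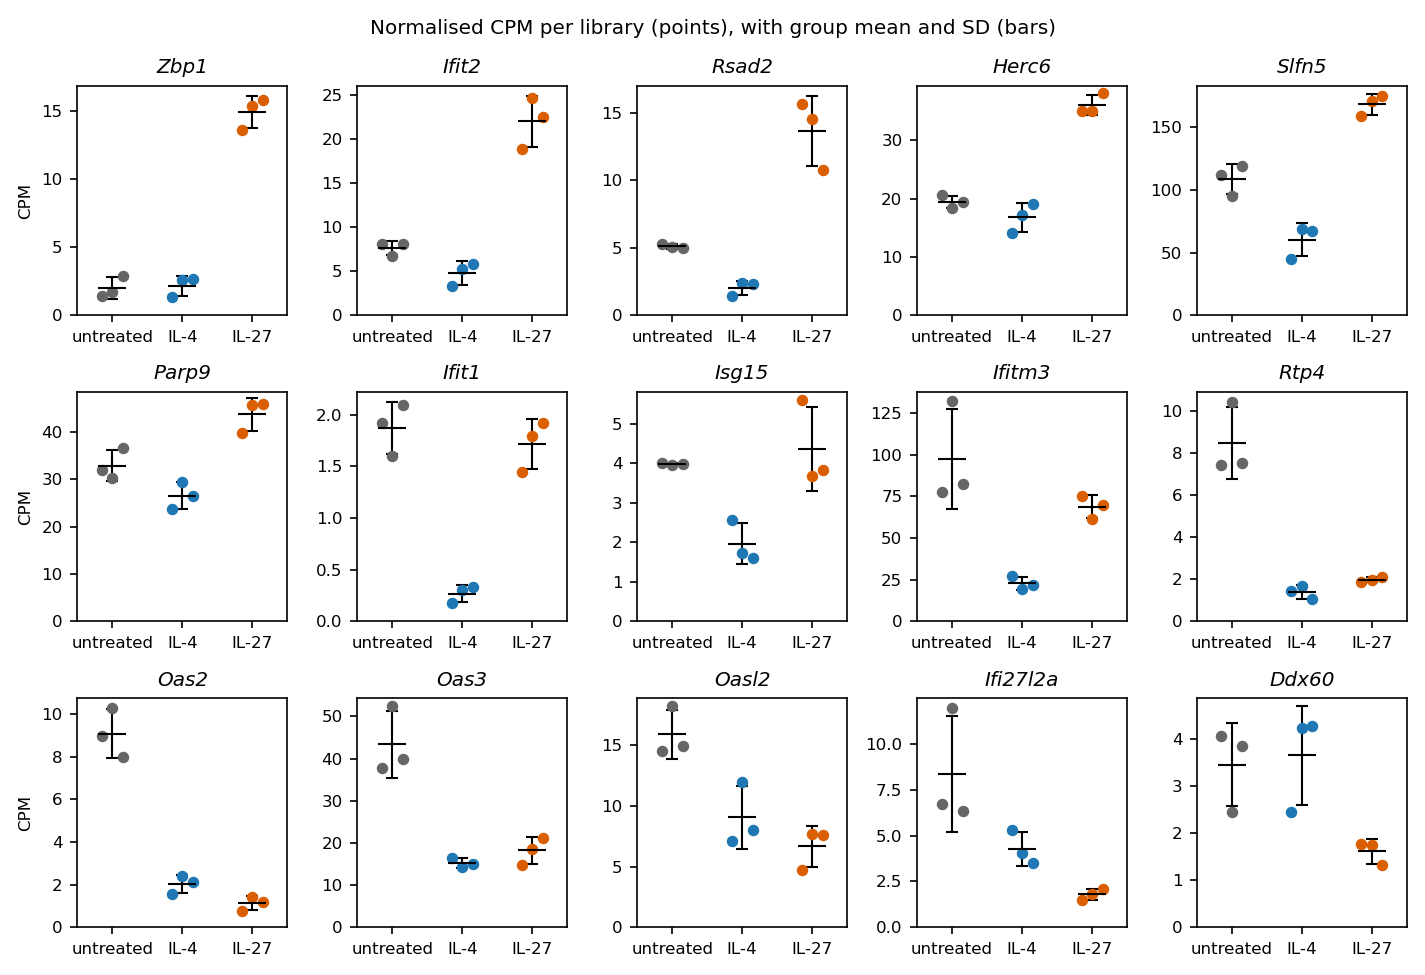
CPM in each library (points) with the group mean and SD (bars, n = 3) for 15 antiviral genes, on linear axes that start at 0. Zbp1, Ifit2, Rsad2, Herc6, Slfn5 and Parp9 are highest with IL-27, and Rtp4, Oas2, Oas3 and Oasl2 are highest in untreated cells.

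Several familiar interferon-stimulated genes did not pass between IL-27 and untreated cells. Isg15, a ubiquitin-like modifier, was at 4.004, 3.95 and 3.99 CPM in untreated, 2.55, 1.72 and 1.60 in IL-4 and 5.59, 3.67 and 3.83 in IL-27 libraries, so the IL-27 libraries lay on either side of the untreated ones (log2 0.13, SE 0.23, adjusted p = 0.705). Usp18, which removes ISG15 and blocks the interferon receptor, ranged widely within groups, at 0.612, 1.93 and 0.921 CPM in untreated, 2.46, 1.65 and 1.91 in IL-4 and 0.30, 1.13 and 0.684 in IL-27 libraries. Untreated and IL-27 libraries overlapped (log2 -0.70, SE 0.53, adjusted p = 0.348). Ifih1, the RNA sensor MDA5, gave 25.8, 20.2 and 23.3 CPM in untreated, 15.4, 19.7 and 19.2 in IL-4 and 16.6, 18.8 and 18.4 in IL-27 libraries. Its untreated libraries were the highest, but IL-27 did not pass (log2 -0.37, SE 0.13, adjusted p = 0.0649). Eif2ak2, the kinase PKR that stops translation on binding double-stranded RNA, was at 49.97, 41.4 and 48.0 CPM in untreated, 37.6, 48.6 and 44.6 in IL-4 and 41.7, 44.7 and 45.6 in IL-27 libraries. All 3 groups overlapped. Adar, which edits double-stranded RNA, read 79.8, 96.6 and 78.2 CPM in untreated, 79.5, 65.1 and 67.3 in IL-4 and 91.2, 97.0 and 94.6 in IL-27 libraries. Untreated overlapped with both treated groups.

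Both membrane factors were highest, within the untreated and IL-4 groups, in the library that stood apart. Ifitm3 was at 77.4, 132 and 82.4 CPM in untreated, 27.2, 19.6 and 21.9 in IL-4 and 75.1, 61.5 and 69.7 in IL-27 libraries. IL-4 libraries were lowest and the IL-27 ones lay between (IL-27 log2 -0.50, SE 0.20, adjusted p = 0.0905). Bst2, which tethers budding virions, gave 59.3, 94.8 and 62.8 CPM in untreated, 107, 68.6 and 73.6 in IL-4 and 63.0, 64.3 and 61.4 in IL-27 libraries. Its highest values were in the 2 libraries that stood apart, and untreated overlapped with both treated groups. With those 2 libraries left out, 10 of the 40 members then tested passed as higher and 13 as lower under IL-27. Of all 12748 genes tested in that setting, 3089 passed as higher and 3224 as lower. Among members that had not passed, Ifi204 (log2 0.26), Adar (0.25) and Dtx3l (0.43) then passed as higher and Ifih1 (-0.46), Ifitm3 (-0.22), Parp14 (-0.17) and Sp100 (-0.51) as lower, with adjusted p up to 0.0125.

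Starting levels of the members raised and lowered by IL-27 overlapped. Untreated FPKM had a median of 3.68 (0.936 to 37.9) over the 7 raised and 3.94 (0.174 to 108) over the 10 lowered members, and 7.29 over the 22 others. By role, the raised members were 1 of 5 IFIT genes, 1 of 3 genes of the ISG15 system, 1 of 5 sensors, 1 of the 2 nucleotide enzymes, 1 of 3 ADP-ribosylation genes, 1 of 4 in the Schlafen and Samd9l group and Tor3a. The lowered members were 2 IFIT genes, 3 of the 5 tested in the OAS and exonuclease group, 2 sensors, 1 Schlafen gene, Rtp4 and Ifi27l2a. IL-4 and IL-27 were compared with the same untreated libraries, so the fold changes of a member with the 2 cytokines are not independent. A high or low untreated value shifts both in the same direction. For members raised by IL-27, the log2 fold changes with IL-27 and with IL-4 were 2.88 and 0.13 for Zbp1, 1.53 and -0.67 for Ifit2, 1.42 and -1.31 for Rsad2, and 0.89 and -0.21 for Herc6. They were 0.63 and -0.85 for Slfn5, 0.43 and 0.30 for Tor3a, and 0.41 and -0.31 for Parp9. The corresponding pairs for lowered members were -3.01 and -2.16 for Oas2, -2.21 and -0.96 for Ifi27l2a, -2.09 and -2.59 for Rtp4, -1.25 and -1.51 for Oas3, and -1.25 and -0.81 for Oasl2. Ddx60 had -1.10 and 0.08, Dhx58 -0.65 and -0.11, Slfn2 -0.28 and -0.77, and Ifit3 -0.995 and -2.44. Ifit1bl1, near the detection limit, had -5.44 and -3.07. Of the 10 lowered members, IL-4 also lowered 8 and 2 did not pass. Of the 7 raised members, IL-4 raised 1, lowered 3 and 3 did not pass. Over all genes IL-4 lowered 12.0% and raised 12.9%, but the overlap of the IL-27 and IL-4 calls was not counted over all genes. These counts therefore cannot show whether the overlap is particular to the members.

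IL-4 lowered many antiviral genes and raised 1. Against untreated cells, 19 of 39 tested members fell, Tor3a rose and 19 did not pass, beside 12.0% lowered and 12.9% raised (25.0% in either direction) over all genes. The IL-4 and untreated libraries did not overlap for 24 members, against 36.0% of all genes. The members' median log2 fold change was -0.67, and -0.01 over all genes. All 5 IFIT genes fell, as did both nucleotide enzymes (Rsad2 and Cmpk2), 3 of 4 in the Schlafen and Samd9l group, and 3 of 5 tested OAS and exonuclease genes. The smallest adjusted p was that of Rtp4, which was 6.04-fold lower (log2 -2.59, SE 0.23, adjusted p = 3.56e-05). Slfn2 followed at 1.71-fold lower (log2 -0.77, SE 0.07, adjusted p = 6.13e-05), then Ifitm3 at 4.25-fold lower (log2 -2.09, SE 0.21, adjusted p = 8.83e-05). Parp14, a mono-ADP-ribosyltransferase, was at 138, 129.7 and 147 CPM in untreated, 72.2, 80.4 and 82.6 in IL-4 and 122, 133 and 125 in IL-27 libraries. Its IL-4 libraries lay well below the other groups, by 1.76-fold against untreated (log2 -0.82, SE 0.09, adjusted p = 0.000136), and the IL-27 and untreated libraries overlapped. Among the synthetases, IL-4 left Oas3 2.84-fold lower (log2 -1.51, SE 0.16, adjusted p = 0.000133) and Oas2 4.47-fold lower (log2 -2.16, SE 0.24, adjusted p = 0.000174).

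Of the role groups, the IFIT genes had the lowest median log2 fold change under IL-4 (-2.77), with a range from -0.67 (Ifit2) to -3.89 (Ifit3b). Ifit1 fell 6.82-fold (log2 -2.77, SE 0.32, adjusted p = 0.000215) and Ifit3 5.43-fold (log2 -2.44, SE 0.33, adjusted p = 0.000482). Ifit3b held 3 counts over the IL-4 libraries and 46 over the untreated ones, so untreated was 16.6 times higher with a counting interval of 5.33 to 83.3. Isg15 was 2.04-fold lower with IL-4 (log2 -1.03, SE 0.24, adjusted p = 0.0114), with every IL-4 library below every untreated one. Rsad2 fell 2.48-fold (log2 -1.31, SE 0.22, adjusted p = 0.00184), Slfn5 1.80-fold (adjusted p = 0.00339), Slfn8 1.98-fold (adjusted p = 0.00319) and Cmpk2, a mitochondrial nucleotide kinase, 1.81-fold (adjusted p = 0.00597). Xaf1, a partner of the apoptosis inhibitor XIAP, gave 6.70, 4.94 and 5.41 CPM in untreated, 2.99, 3.60 and 4.22 in IL-4 and 5.89, 5.38 and 4.43 in IL-27 libraries. IL-4 libraries were lowest (log2 -0.66, SE 0.20, adjusted p = 0.0349), and untreated and IL-27 overlapped. The rise of Tor3a was 1.23-fold (log2 0.30, SE 0.08, adjusted p = 0.0242).

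Among the sensors, no member passed between IL-4 and untreated cells in edgeR with all 9 libraries, although 1 had an unadjusted p under 0.05 (Ifih1, log2 -0.35, adjusted p = 0.0845), with log2 fold changes from -0.35 to 0.35. DESeq2 passed none of the 5 either, with Ifih1 lowest at an adjusted p of 0.0588. Ifih1 did pass as lower in edgeR without untreated library 2, and without both libraries that stood apart (log2 -0.33, adjusted p = 0.0111). Of the 20 IL-4 calls, 6 were lost on leaving out single libraries. Tor3a did not pass without any 1 untreated library or IL-4 library 3 (adjusted p = 0.0511 to 0.0705), and Ifi27l2a without untreated library 2, IL-4 library 2 or IL-4 library 3 (0.0753 to 0.0989). Oasl2 did not pass without any 1 untreated library, IL-4 library 1 or IL-4 library 3 (adjusted p = 0.0578 to 0.107). Ifit1bl1 did not pass without untreated libraries 1 or 3 or IL-4 libraries 1 or 3 (adjusted p = 0.0518 to 0.0792), and Xaf1 without untreated libraries 1 or 3, IL-4 libraries 1 or 2 or IL-27 library 2 (0.0568 to 0.129). Ifit2 did not pass when any library other than untreated library 2 and IL-4 library 3 was left out (adjusted p = 0.0525 to 0.108). With both libraries that stood apart left out, IL-4 lowered 25 members and raised 3, adding Bst2 (log2 0.22, adjusted p = 0.00704) and Ifi204 (log2 0.39, adjusted p = 3.24e-05) to Tor3a. Of all 12748 genes tested in that setting, 2848 were lowered and 3061 raised. The 6 further members that then passed as lower were Ifih1, Adar (log2 -0.25), Parp9 (-0.29), Dtx3l (-0.28), Samd9l (-0.21) and Sp100 (-0.45), with adjusted p up to 0.0499.

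**Figure D5:**
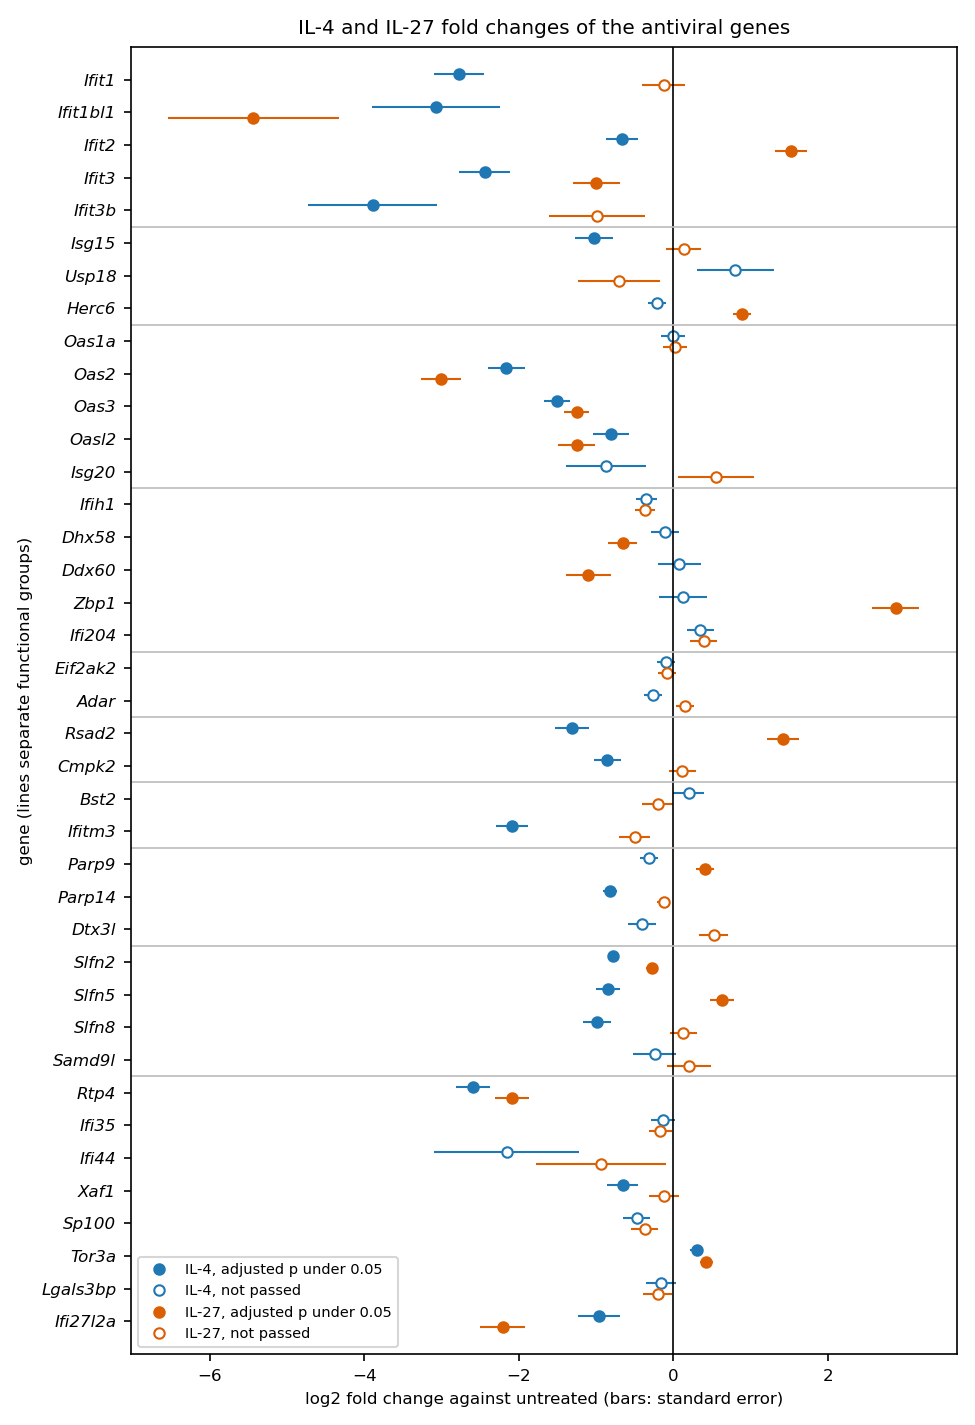
Log2 fold change against untreated of each of the 39 tested antiviral genes for IL-4 and IL-27 (bars are standard errors; filled points passed an adjusted p under 0.05). Filled IL-4 points lie left of 0 for 19 genes and right for Tor3a, and filled IL-27 points lie on both sides, 10 left and 7 right.

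Set directly against IL-4, IL-27 left 18 of the 39 members higher and 5 lower, while 16 did not pass, beside 18.8% higher and 21.0% lower (39.8% in either direction) over all genes. Against untreated, 7 of the 18 were lowered by IL-4 and did not pass with IL-27. Another 3 were lowered by IL-4 and raised by IL-27, and 2 were lowered by both. IL-27 alone raised 3, and 3 passed with neither cytokine. The same breakdown was not made over all genes. The 2 cytokine groups did not overlap for 27 members, against 56.7% of all genes. The members' median log2 difference was 0.50, and 0.01 over all genes. The largest differences among the higher members were those of Ifit3b (log2 2.91), Zbp1 (2.76), Rsad2 (2.73), Ifit1 (2.65) and Ifit2 (2.19). Rsad2 was 6.62-fold higher with IL-27 than with IL-4 (SE 0.22 on the log2 scale, adjusted p = 7.05e-06), and Ifit1 was 6.27-fold higher (SE 0.32, adjusted p = 0.000125). Zbp1 was 6.76-fold higher (SE 0.30, adjusted p = 5.58e-05), and Ifit2 4.57-fold (SE 0.21, adjusted p = 2.21e-05). Ifit3b rests on 24 counts with IL-27 and 3 with IL-4, a ratio of 8.29 (counting interval 2.52 to 43.0), and its call was lost without IL-4 library 1, IL-4 library 3, IL-27 library 1 or IL-27 library 2 (adjusted p = 0.0619 to 0.0783). Oasl1, an OAS-like protein below the filter, held 19 counts in untreated, 3 in IL-4 and 28 in IL-27 libraries. Its IL-27 to IL-4 ratio was 9.67 (2.99 to 49.7), with no test, and 1 untreated library held most of the untreated counts (0.473 CPM, against 0.0301 and 0.0279).

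All 3 ADP-ribosylation genes were higher with IL-27 than with IL-4, namely Dtx3l (log2 0.93, adjusted p = 0.00291), Parp9 (0.72, adjusted p = 0.000827) and Parp14 (0.69, adjusted p = 0.000173). So were both nucleotide enzymes and 3 of 4 in the Schlafen and Samd9l group, with Slfn5 2.78-fold higher (log2 1.48, SE 0.16, adjusted p = 5.17e-05). Ifitm3 was 3.01-fold higher (log2 1.59, SE 0.21, adjusted p = 0.000195), Isg15 2.23-fold (adjusted p = 0.00358) and Herc6 2.15-fold (adjusted p = 6.32e-05). The 5 members lower with IL-27 than with IL-4 were Usp18 (log2 -1.50, adjusted p = 0.0414), Ifi27l2a (-1.25, adjusted p = 0.00655), Ddx60 (-1.18, adjusted p = 0.00912), Oas2 (-0.85, adjusted p = 0.0261) and Dhx58 (-0.55, adjusted p = 0.0407). Ddx60 was 2.27-fold lower, with the IL-27 libraries all below those of IL-4. Some of these calls were lost on leaving out 1 library. Oas2 did not pass without IL-4 libraries 2 or 3 or IL-27 libraries 1 or 3 (adjusted p = 0.0564 to 0.0881), and Usp18 without untreated library 3, any 1 IL-4 library or IL-27 libraries 1 or 3 (0.054 to 0.125). Dhx58 did not pass without untreated library 3, IL-4 libraries 1 or 3 or any 1 IL-27 library (adjusted p = 0.0507 to 0.12). Of the higher members, Adar (log2 0.42, adjusted p = 0.0141) was lost without IL-4 libraries 2 or 3 or IL-27 libraries 2 or 3 (0.0516 to 0.0543). Isg20, an RNA exonuclease (log2 1.42, adjusted p = 0.0496), was lost when any library other than IL-4 libraries 2 and 3 was left out (0.05003 to 0.116). Of the 39 members, 10 passed in none of the 3 comparisons by edgeR (Oas1a, Ifih1, Ifi204, Eif2ak2, Bst2, Samd9l, Ifi35, Ifi44, Sp100 and Lgals3bp), although DESeq2 passed Ifih1 as lower with IL-27 and Sp100 as lower with IL-4. The most abundant member, Lgals3bp, was at 309.8, 492 and 314 CPM in untreated, 410.0, 291 and 298 in IL-4 and 319, 335 and 317 in IL-27 libraries, with the highest value of each of the first 2 groups in the library that stood apart. Without those libraries Lgals3bp was higher with IL-27 than with IL-4 (log2 0.13, adjusted p = 0.0129), against -0.04 with all libraries. Because dose and time differ between the cytokines, a difference between these groups is also a difference in dose and time.

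Genes of interferon signalling, counted together with the inhibitors Socs1 and Socs3, moved with IL-27 more often in the upward direction. Of 17 signalling genes tested, 9 rose and 2 fell against untreated, beside 14.0% raised and 15.1% lowered over all genes. The transcription factor Irf1 rose from 60.9 ± 12.1 to 305 ± 18.1 CPM (SD, n = 3; log2 2.32, adjusted p = 3.92e-06). The feedback inhibitors Socs3 (log2 1.97, adjusted p = 1.87e-05) and Socs1 (1.87, adjusted p = 0.000125) rose as well, as did Stat2 (0.51, adjusted p = 0.0055). Irf7, an amplifier of type I interferon genes, fell from 10.0 ± 3.86 to 3.66 ± 0.931 CPM (log2 -1.45, adjusted p = 0.00903), and the interferon-gamma receptor chain Ifngr1 fell from 262 ± 3.18 to 115 ± 2.29 (log2 -1.19, adjusted p = 2.45e-06). Irf9, a subunit of the ISRE-binding complex, had means of 35.3 ± 2.42 CPM in untreated and 36.9 ± 4.39 in IL-27 cells and did not pass. With IL-4, 2 of the 17 rose and 4 fell, beside 12.9% raised and 12.0% lowered over all genes. The rises were those of Socs1 (log2 3.82, adjusted p = 2.2e-06) and Jak2 (1.36, adjusted p = 0.000436). Irf9 (-0.60, adjusted p = 0.00338), Irf8 (-0.80, adjusted p = 0.00465), Stat3 (-0.49, adjusted p = 0.0221) and Irf7 (-1.04, adjusted p = 0.0438) fell. Of 20 interferon ligand genes, 2 (Ifnk and Ifnz) were in the tables and neither passed the filter.

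Sensors and adaptors outside the member set fell in part. For comparison with the counts that follow, 14.0% of all genes rose and 15.1% fell with IL-27, and 12.9% rose and 12.0% fell with IL-4. Of 15 nucleic acid sensing genes tested, 9 fell with IL-27 and 6 did not pass. Examples were the kinase gene Ikbke (log2 -1.45, adjusted p = 6.45e-05) and Ddx58, the RNA sensor RIG-I (-0.92, adjusted p = 0.000588). With IL-4, 10 did not pass and 5 fell, among them Tlr9 (log2 -1.85, adjusted p = 0.000115) and Tlr7 (-1.74, adjusted p = 0.00194), which sense nucleic acid in endosomes. Of 23 tested family copies of the members, 4 rose and 6 fell with IL-27, and 3 rose and 4 fell with IL-4. Slfn9 rose with IL-4 (log2 1.25, adjusted p = 0.002) and fell with IL-27 (-1.19, adjusted p = 0.00253), the reverse of its family member Slfn5. Ifitm2, a neighbour and near copy of Ifitm3, was lower with IL-4 (log2 -0.81, adjusted p = 0.00363) and with IL-27 (-0.95, adjusted p = 0.00121). Oas1c fell with IL-27 (log2 -1.58, adjusted p = 0.000962), and the Ifi200 gene Ifi211 rose with IL-4 (0.59, adjusted p = 0.0419) and with IL-27 (1.34, adjusted p = 0.000487).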

How the data were processed

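PolyA RNA was measured in 9 libraries. The authors deposited whole-number counts for each gene. Per the submitters' processing notes, the tools were fastp, HISAT2 and HTSeq with GRCm39 as build, and versions are not stated. The FPKM values deposited by the authors equal counts over gene length and library total, with whole lengths for 16200 of 16200 genes within 0.001 bases, and served to compare levels between genes. Strand, annotation and the handling of shared reads in counting are not given in the sources.

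The test was edgeR's quasi-likelihood F test (edgeR 4.0.16, R 4.3.3) from a single model of all 9 libraries by group, with TMM factors of 0.918 to 1.06 and filterByExpr at a minimum count of 10. Calls are Benjamini-Hochberg adjusted p under 0.05 over 12587 genes. Each standard error is the size of the log2 fold change divided by the root of F. Common dispersion was 0.0272. The alternatives included DESeq2 1.42.0.

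The members, role lists and tests were chosen with earlier results of these data known. Values in every library are given for up to 8 raised and 8 lowered members by size under IL-27, up to 6 lowered (by adjusted p) and all raised under IL-4, and a panel of familiar genes. Slfn2 and Parp14 come from the IL-4 rule, and Oasl1 and genes outside the member lists that are named were chosen after their values were seen. Promoter windows were matched by gene ID to RefSeq, and no coordinates were taken from the counts. The meaning of the replicate numbers is not stated. Of 9 same-numbered pairs, 1 had deviations correlated above 0.1. The 2 libraries that stood apart, with different numbers, correlated at 0.91 and shape the deviations of their groups, so this check cannot decide whether the numbers pair the libraries. Some genes of the pathway lists are counted but not reported here by name.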

Additional observations from a re-analysis of the deposited data

How the results depend on the processing

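Each comparison was refitted under 17 alternatives, and 14 of 20 calls for IL-4, 11 of 17 for IL-27 and 17 of 23 for IL-27 against IL-4 were kept in all alternatives that tested them. Among these, Ifit3b for IL-4 and Ifit1bl1 for IL-27 were not tested when genes needed over 1 CPM in at least 3 libraries. Members raised by IL-4 numbered 1 in the main analysis, 0 with only the 2 groups compared, 0 with the replicate block, and 3 both without the 2 libraries that stood apart and with an added term for them. Over all genes tested, these settings in the same order gave 1630, 1154, 1207, 3061 and 3532 raised by IL-4. Leaving out 1 library in turn gave 0 to 2 raised by IL-4, 6 to 11 lowered by IL-27 (6 without IL-27 replicate 3) and 2 to 6 lower with IL-27 than with IL-4. Calls over all genes also varied, with 1214 to 1827 raised by IL-4 and 1335 to 2386 lowered by IL-27. Between 1961 and 3056 genes were lower with IL-27 than with IL-4. Lgals3bp, at a log2 difference of -0.04 between IL-27 and IL-4, changed sign and passed without the libraries that stood apart (0.13, adjusted p = 0.0129) and with the added term (0.17, adjusted p = 0.0012) in edgeR. The cause was not tested. Whether the replicate numbers pair the libraries could not be decided (correlations of same-numbered deviations from -0.82 to 0.69). The replicate block gave 0 raised and 16 lowered for IL-4, 7 and 7 for IL-27, and 17 higher and 4 lower for IL-27 against IL-4. Few counts limit Ifit1bl1, Ifit3b and Oasl1, whose totals in 1 group were 3 counts or fewer.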
